A study of Solanum lycopersicum x Solanum pennellii and Solanum lycopersicum with 21 samples.

Results

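Anthers of 4 tomato introgression lines were set as one class against anthers of their domesticated parent M82, to ask what the lines share. Arrays were placed by their titles: IL-8_1_1, IL-7_2 and IL-4_2 had 4 arrays each and IL-1_1_3 had 3, so that 15 of the 21 arrays of the series belonged to a line and 6 to M82. A pooled value is the mean of the 4 line means, so that each line weighed the same. The lines are labelled Solanum lycopersicum x Solanum pennellii, the second being the wild species, and M82 is labelled as parental Solanum lycopersicum. All anthers came from greenhouse plants that were treated alike, 1 day before the flowers opened, although pollen is named in the titles of M82 alone. The line characteristic shortens 2 of the names to IL-8_1 and IL-1_1, and the word hybrids in the design text leaves the copies of a segment unstated. Separate plants are not stated for the replicates, and the p-values cover only the spread between these arrays, which may be technical. Each value is the log2 expression value of 1 probe set on 1 Affymetrix array, and the number of arrays limits the precision.

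An introgression line is a cultivated plant in which a stretch of chromosome has been replaced by that of a wild relative, and the first number in its name is the chromosome. The lines therefore share the M82 background but carry different segments. Anthers just before opening hold nearly mature pollen inside a drying wall, while the tapetum, the layer that fed the pollen, has broken down.

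Array medians were nearly equal (9.49 to 9.55), and arrays of a group correlated at 0.925 to 0.998 across probe sets. The tissue label was set against genes known from pollen and late anthers. Shy, PRK2, PRK1, LAT61 and PRK3 had means of 14.04, 12.60, 12.47, 10.84 and 7.49 over the lines, against 14.01, 12.52, 12.36, 10.66 and 7.32 in M82. One axis held 59.2% of the variance within groups. The mean score on it was -5.27 in IL-8_1_1, 7.29 in IL-7_2, -6.42 in IL-4_2 and -18.2 in IL-1_1_3, against 12.05 in M82. IL-7_2 spanned both extremes of the line arrays (-55.9 to 45.8), all 3 IL-1_1_3 arrays were below 0, and M82 ran from -22.5 on array 3 up to 38.0.

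Only 4 of the probe sets called in the pooled comparison were also called in each of the 4 lines, and most were called in 1 line. In a linear model of the 5 groups fitted to 10101 probe sets with limma, 193 probe sets (1.91% of those tested) differed between the lines together and M82 at an adjusted p of 0.05. Of these, 82 were higher in the lines (0.812%) and 111 were lower (1.10%). Without the reporter (RPTR) probe sets, 192 were called, 81 higher and 111 lower. After cyclic loess scaling the calls were 30 higher and 121 lower. An unadjusted p under 0.05 was reached by 1704 probe sets, 1072 higher and 632 lower.

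The single-line comparisons, which share the 6 M82 arrays with the pooled one, called 1.44% of probe sets in IL-8_1_1, 2.84% in IL-7_2, 1.83% in IL-4_2 and 1.97% in IL-1_1_3. Of the 193 pooled calls, 146 were called in exactly 1 of them, 27 in 2, 6 in 3, 4 in all 4 and 10 in none. The line with the largest change was IL-1_1_3 at 60 of the 193, IL-4_2 at 50, IL-7_2 at 45 and IL-8_1_1 at 38, where over all probe sets these lines had it at 42.8%, 19.1%, 24.5% and 13.7%. At 49 of the 193 the mean of the other 3 lines lay within 0.1 of M82 on the log2 scale. The same share over all probe sets was not counted, so the 49 only describe the called probe sets.

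Whether the lines differed among themselves was asked with a moderated F test of the 4 line means, in which the M82 mean has no part. It called 707 probe sets (7% of those tested), and 122 of the 193 pooled calls (63.2%) were among them. Of those 122, 71 had changes of both signs and 51 had 1 sign. The remaining 71 pooled calls did not pass the F test and had 1 sign in the 4 lines, which these conditions together nearly fix. They were 50 rises, with a median log2 change of 0.32, and 21 falls, with a median of -0.58. The 4 lines had 1 sign in 70 of the 82 pooled rises and in 52 of the 111 pooled falls. Over all probe sets that share was 40.6%, and a pooled call itself favours 1 sign.

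Leaving a line out of the pooled mean shows how much it carried. Without IL-1_1_3 the other 3 lines kept 59.1% of the pooled calls, without IL-4_2 71.5%, without IL-7_2 73.1% and without IL-8_1_1 77.7%. These means of 3 lines called 1.58%, 2.13%, 2.19% and 2.46% of all probe sets.

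**Figure D1:**
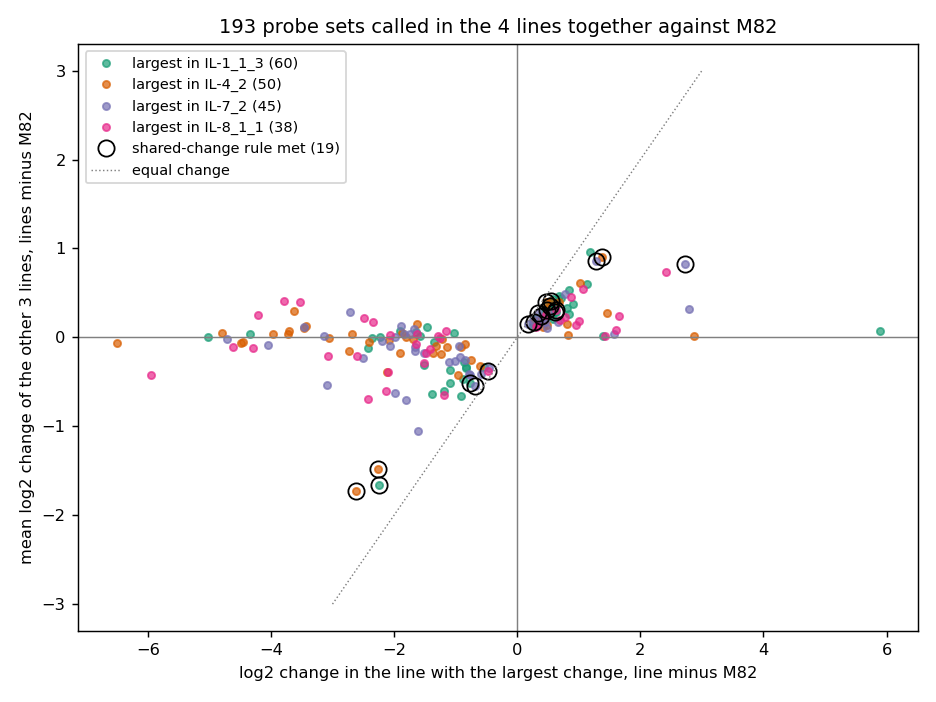
Log2 change against M82 in the line with the largest change (horizontal axis) and mean log2 change of the other 3 lines (vertical axis) for the 193 probe sets called in the pooled comparison, coloured by the line with the largest change. At 49 points the other 3 lines average within 0.1 of M82, for which no share over all probe sets was counted. The 19 ringed probe sets, which the rule for shared changes selected for evenness, lie nearer to the dotted line of equal change.

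A change was counted as shared where the pooled comparison called it, the 4 lines had 1 sign and each mean of 3 lines also passed. This held for 19 probe sets (0.188% of those tested), 13 higher (0.129%) and 6 lower (0.0594%) in the lines. The rule does not ask that each line pass by itself: 4 of the 19 passed in all 4 lines, 3 in 3, 7 in 2 and 5 in 1. The split of rises and falls moved with the setting. It was 8 rises and 7 falls after cyclic loess, and 11 and 2 without probe sets of a level below 7.11. It was 27 and 29 without M82 array 3. Without 3 arrays chosen from the low side of the within-group axis it was 18 and 26. Of the 19, 18 have no symbol in the annotation used here and are given by their IDs. Their changes were mostly small, with a median size of 0.42. In the line with the largest change their median size was 0.61, and in the mean of the other 3 lines 0.40. The rule itself selects for such evenness, so these values only describe the 19.

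At 6 probe sets (0.0594% of those tested) every line array lay on one side of every M82 array, and all 6 belong to the 19. The brightest of them was Les.4290.1.S1_at, for which the IL-8_1_1 arrays had 13.52, 13.51, 13.59 and 13.51, those of IL-7_2 13.47, 13.34, 13.50 and 13.51, those of IL-4_2 13.57, 13.58, 13.49 and 13.61, and those of IL-1_1_3 13.50, 13.52 and 13.49, against 13.00, 13.23, 13.08, 13.07, 13.08 and 13.14 in M82. The line arrays were close to each other and all above M82. Its pooled log2 change was 0.42 ± 0.04 (SE), 1.33-fold, with a 95% interval of 0.33 to 0.50 (adjusted p = 4.38e-06). Each line passed by itself, and the F test among the lines did not (adjusted p = 0.641).

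LesAffx.65306.1.S1_at was the one of the 6 that was lower in the lines. There the IL-8_1_1 arrays had 9.30, 9.10, 9.11 and 9.18, those of IL-7_2 9.24, 9.26, 9.41 and 9.33, those of IL-4_2 9.14, 9.07, 9.23 and 9.38, and those of IL-1_1_3 9.07, 8.94 and 8.93, against 9.72, 9.59, 9.88, 9.77, 9.71 and 9.78 in M82. The highest line array lay below the lowest M82 array. The pooled log2 change was -0.58 ± 0.05 (SE, adjusted p = 3.96e-06). Each line passed by itself, with changes of -0.57 in IL-8_1_1, -0.43 in IL-7_2, -0.54 in IL-4_2 and -0.76 in IL-1_1_3.

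Les.2063.1.A1_at rose most among the 6, and unevenly. There the IL-8_1_1 arrays had 9.60, 9.83, 9.66 and 9.16, those of IL-7_2 9.33, 9.11, 9.05 and 9.08, those of IL-4_2 9.95, 9.97, 10.09 and 10.27, and those of IL-1_1_3 10.09, 10.21 and 9.88, against 8.34, 8.64, 8.85, 8.59, 8.90 and 8.83 in M82. The arrays of IL-4_2 and IL-1_1_3 were the highest, and those of IL-7_2 came closest to M82 without overlapping it. The pooled difference was 2.03-fold (log2 change 1.02 ± 0.10, adjusted p = 4.38e-06), with changes of 0.87 in IL-8_1_1, 0.46 in IL-7_2, 1.38 in IL-4_2 and 1.37 in IL-1_1_3. The F test passed (adjusted p = 3.07e-04), and IL-7_2 did not pass by itself (adjusted p = 0.0648).

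LesAffx.50170.1.S1_at was higher in each line by itself. Its line arrays ran from 7.65 with a median of 8.15 to 8.73, against 6.50, 7.28 and 7.53 as lowest, median and highest of M82. The pooled difference was 1.95-fold (log2 change 0.97 ± 0.14, adjusted p = 6.61e-04).

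A pair of smaller rises also kept the groups apart. LesAffx.20752.1.S1_at lay at 8.33 to 8.64 in the lines, against 7.97 to 8.25 in M82 (log2 change 0.29 ± 0.05, adjusted p = 0.00255). Les.2609.1.A1_at, the smallest of the 19 changes, lay at 8.59 to 8.75 in the lines, against 8.45 to 8.55 in M82 (log2 change 0.16 ± 0.03, 1.12-fold, adjusted p = 0.0224). By itself only IL-7_2 passed for Les.2609.1.A1_at (adjusted p = 0.0333). Its arrays varied little, with an SD within groups of 0.04. Without M82 array 2 or 4 it no longer passed (adjusted p = 0.0562 and 0.0575).

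**Figure D2:**
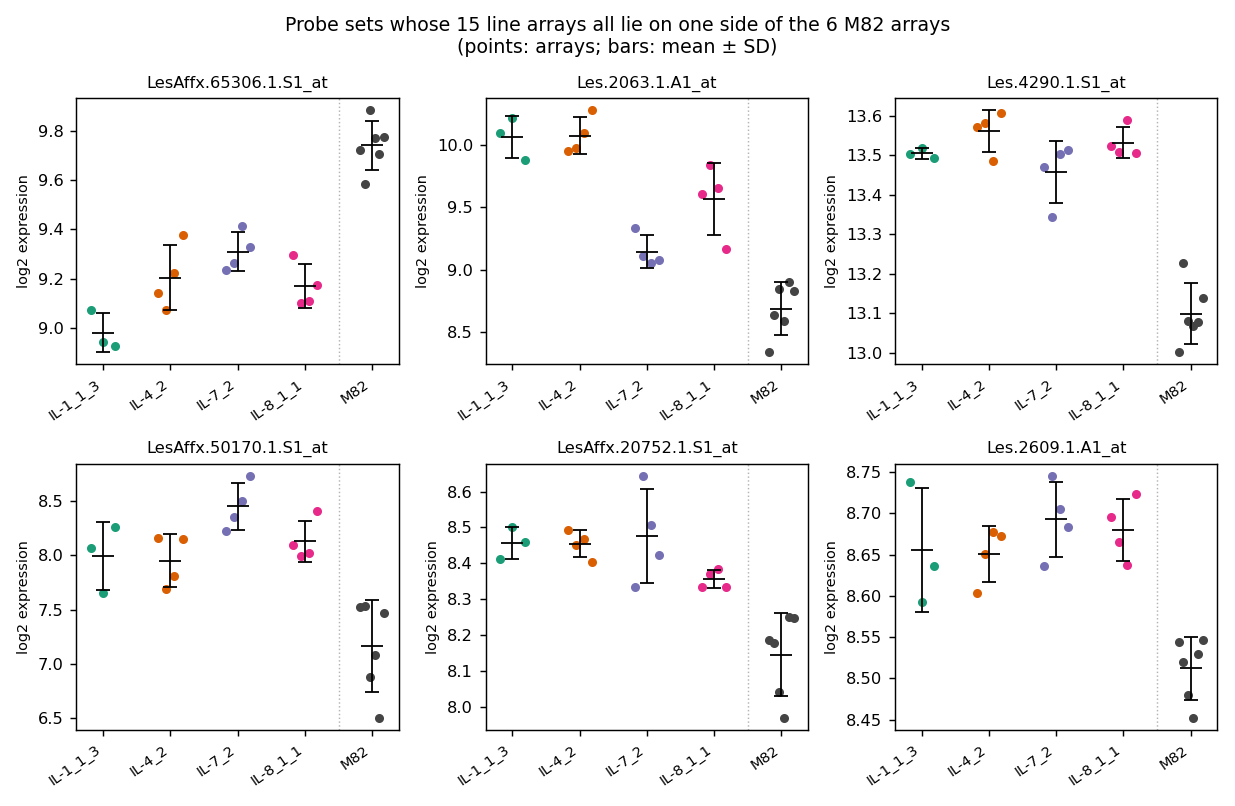
Log2 expression by group of the 6 probe sets whose 15 line arrays all lie on one side of the 6 M82 arrays (points are arrays, bars are mean ± SD). LesAffx.65306.1.S1_at has line arrays up to 9.41 and M82 arrays from 9.59, and in the other 5 probe sets the lines lie above M82.

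The largest shared falls were in 3 dim probe sets, and in each of them M82 array 3, at -22.5 on the within-group axis where M82 averaged 12.05, lay within the range of the lines. For LesAffx.124.1.S1_at, the IL-8_1_1 arrays had 5.76, 5.78, 6.23 and 6.38, those of IL-7_2 6.04, 5.85, 7.18 and 6.65, those of IL-4_2 6.85, 6.80, 6.23 and 6.79, and those of IL-1_1_3 6.01, 5.88 and 5.49, against 8.52, 8.87, 6.67, 7.66, 8.21 and 8.29 in M82. Of the 15 line arrays 11 lay below every M82 array. The pooled fall was 3.49-fold (log2 change -1.80 ± 0.25, adjusted p = 4.11e-04), and each line passed by itself.

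Les.3166.1.S1_at and Les.3166.2.S1_at share the cluster number in their IDs and may read the same transcript. The first ran from 4.63 with a median of 5.64 to 7.24 in the lines, against 5.62, 7.87 and 8.71 in M82 (log2 change -1.95 ± 0.34, adjusted p = 0.00403). The second ran from 5.23 with a median of 6.24 to 7.71, against 6.37, 8.16 and 9.03 in M82 (log2 change -1.67 ± 0.29, adjusted p = 0.00336). Their lowest M82 values, 5.62 and 6.37, were both from array 3. IL-4_2 had the lowest line means (5.01 and 5.73) and IL-7_2 the highest (6.22 and 6.73). The first passed by itself in IL-4_2 and IL-8_1_1, and the second in IL-4_2 alone.

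LesAffx.3499.2.A1_at fell less. It lay at 9.41 to 9.80 in the lines with a median of 9.65, against 9.68, 9.97 and 10.36 in M82, and 10 of the 15 line arrays were below every M82 array. By itself only IL-8_1_1 passed (adjusted p = 0.0439). The pooled log2 change was -0.40 ± 0.09 (adjusted p = 0.0224), and without M82 array 2, 5 or 6 the adjusted p was 0.0623, 0.0761 and 0.089.

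Les.1645.1.A1_at had the largest shared rise, and IL-7_2 made up most of it. There the IL-8_1_1 arrays had 5.77, 6.16, 6.16 and 6.52, those of IL-7_2 7.72, 8.53, 8.54 and 8.53, those of IL-4_2 6.41, 6.56, 6.88 and 6.52, and those of IL-1_1_3 6.52, 6.19 and 6.85, against 5.65, 5.26, 6.12, 6.28, 5.08 and 5.21 in M82. All IL-7_2 arrays lay above every other array, while IL-8_1_1 and IL-1_1_3 overlapped with M82. The pooled difference was 2.46-fold (log2 change 1.30 ± 0.18, adjusted p = 3.40e-04), and the F test passed (adjusted p = 3.16e-05). The changes were 0.55 in IL-8_1_1, 2.73 in IL-7_2, 0.99 in IL-4_2 and 0.92 in IL-1_1_3. By themselves IL-7_2 and IL-4_2 passed (adjusted p = 3.08e-07 and 0.036), and IL-8_1_1 and IL-1_1_3 did not (0.627 and 0.0694).

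In another pair of shared rises the lines split. LesAffx.6721.1.S1_at averaged 8.96 ± 0.10 in IL-8_1_1, 8.54 ± 0.08 in IL-7_2, 8.44 ± 0.12 in IL-4_2 (SD, n = 4 each) and 8.94 ± 0.11 in IL-1_1_3 (n = 3), against 8.33 ± 0.10 in M82 (n = 6). IL-7_2 and IL-4_2 did not pass by themselves (adjusted p in limma's fit = 0.159 and 0.559), and the F test passed (adjusted p = 1.13e-04). Les.5829.1.S1_at averaged 10.15 ± 0.10 in IL-8_1_1, 10.06 ± 0.17 in IL-7_2, 10.37 ± 0.10 in IL-4_2 and 10.52 ± 0.10 in IL-1_1_3, against 9.91 ± 0.10 in M82. Here IL-8_1_1 and IL-7_2 did not pass (adjusted p = 0.285 and 0.423), and the F test passed (adjusted p = 0.0101).

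The other 5 shared rises were chosen for naming after their values were seen, to complete the 19. They are LesAffx.70038.1.S1_at, Les.4762.1.S1_at, Les.5309.1.S1_at, Les.602.1.A1_at and Les.1602.1.S1_at, with pooled changes of 0.28, 0.20, 0.40, 0.35 and 0.44 and adjusted p between 0.00376 and 0.0247. None of the 5 passed the F test, and by themselves 3, 2, 2, 1 and 2 lines passed. Les.5309.1.S1_at did not pass without M82 array 6 (adjusted p = 0.0522). Les.602.1.A1_at did not without M82 array 2 or 6 (0.0684 and 0.0741), nor Les.1602.1.S1_at without M82 array 2, 4, 5 or 6 (0.0506 to 0.0901).

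**Figure D3:**
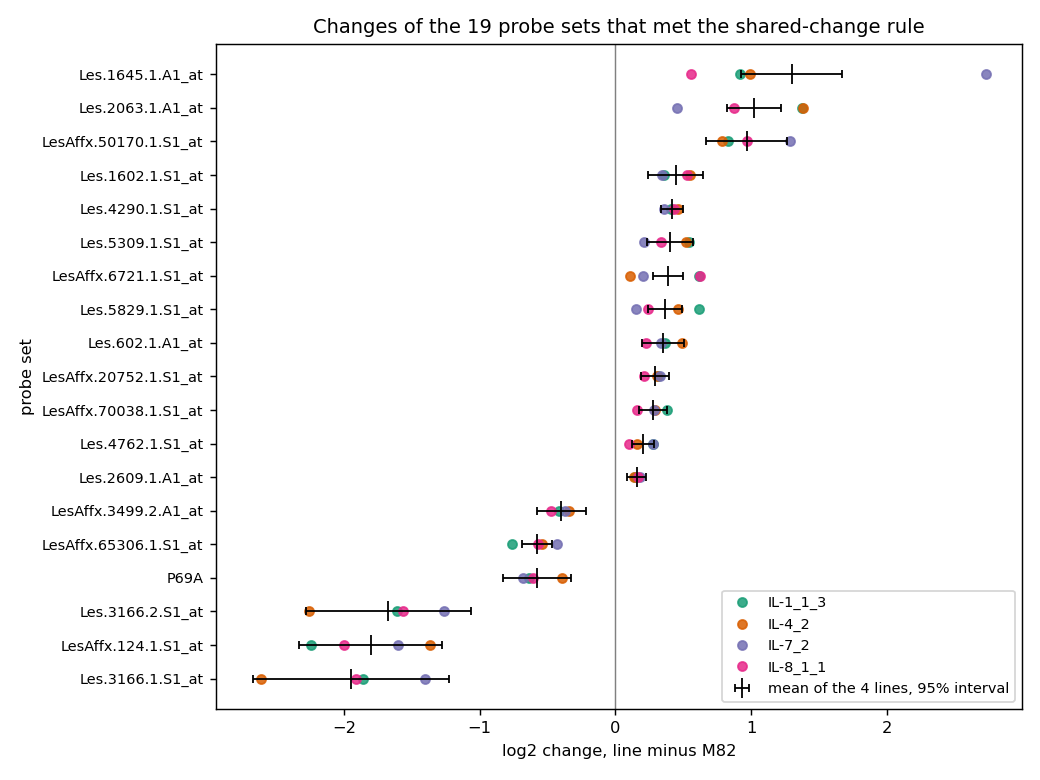
Log2 change against M82 of each line (coloured points) and of the mean of the 4 lines with its 95% interval (black) for the 19 probe sets that met the rule for a shared change. The rule places all points of a row on the same side of 0, and 4 of the 19 passed in each line. IL-7_2 stands apart for Les.1645.1.A1_at at 2.73.

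P69A was the 1 named gene among the 19. It encodes a subtilisin-like protease of the tomato P69 family, members of which are known from the response to pathogens. For P69A, the IL-8_1_1 arrays had 4.29, 4.12, 4.25 and 4.06, those of IL-7_2 4.09, 3.98, 4.21 and 4.12, those of IL-4_2 4.28, 4.35, 4.12 and 4.83, and those of IL-1_1_3 4.10, 4.08 and 4.25, against 4.69, 4.74, 4.23, 5.01, 5.34 and 4.70 in M82. Of the 15 line arrays 9 lay below every M82 array, and M82 array 3 and IL-4_2 array 4 lay among the other group's values. The pooled fall was 1.49-fold (log2 change -0.58 ± 0.12, adjusted p = 0.0172), with -0.60 in IL-8_1_1, -0.68 in IL-7_2, -0.39 in IL-4_2 and -0.64 in IL-1_1_3, and the F test did not pass (adjusted p = 0.671). By itself only IL-7_2 passed (adjusted p = 0.0225, against 0.083 in IL-8_1_1, 0.300 in IL-4_2 and 0.0619 in IL-1_1_3). Its level is at the 5.50th percentile of all probe sets. Its relative P69B, named here after its value was seen, had a log2 change of -0.33 that did not pass (adjusted p = 0.411).

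DREB3, a transcription factor of the family that binds dehydration-responsive elements, was the 1 named gene that rose. It averaged 11.83 ± 0.13 in IL-8_1_1, 11.71 ± 0.31 in IL-7_2, 11.90 ± 0.07 in IL-4_2 (SD, n = 4 each) and 12.01 ± 0.08 in IL-1_1_3 (n = 3), against 11.45 ± 0.23 in M82 (n = 6). Of the 15 line arrays 12 lay above the highest M82 array, at 11.73, and 2 of the 3 others were of IL-7_2, at 11.55 and 11.38. The rise was 1.33-fold (log2 change 0.41 ± 0.09, adjusted p = 0.0308), and the F test among lines did not pass (adjusted p = 0.584). The call was lost without IL-1_1_3 (adjusted p = 0.0767), after cyclic loess (0.0569), without M82 arrays 2, 5 and 6 (0.0947, 0.0706 and 0.0959) and without IL-1_1_3 array 3 (0.0531). By itself only IL-1_1_3 passed (adjusted p = 0.043, against 0.285 in IL-8_1_1, 0.369 in IL-7_2 and 0.0882 in IL-4_2).

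The gene ctu1 ran from 4.88 with a median of 6.10 to 7.26 in the lines, against 6.33, 7.19 and 8.26 in M82, so that the groups overlapped, with 10 of the 15 line arrays below every M82 array. It fell 2.29-fold (log2 change -1.19 ± 0.27, adjusted p = 0.0308), with -1.06 in IL-8_1_1, -1.62 in IL-7_2, -0.65 in IL-4_2 and -1.44 in IL-1_1_3. The call was lost without IL-1_1_3 (adjusted p = 0.0548) or IL-7_2 (0.0626), without M82 arrays 2, 4, 5 and 6 (0.0666, 0.0697, 0.0904 and 0.0547) and without IL-1_1_3 array 3 (0.054). By itself only IL-7_2 passed (adjusted p = 0.0173, against 0.312 in IL-8_1_1, 0.486 in IL-4_2 and 0.0633 in IL-1_1_3).

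Of the 626 genes with an informative symbol 1 rose and 5 fell in the pooled comparison (0.958%, where 1.91% of all probe sets were called), and the other 3 falls were each carried by 1 line. FLACCA, the molybdenum cofactor sulfurase of abscisic acid synthesis, had a pooled log2 change of -1.07 ± 0.08 (adjusted p = 4.68e-07). IL-7_2 held 94.4% of its summed change, and the other 3 lines averaged -0.08 (adjusted p = 0.586). HY5, a bZIP factor of the light response, had a pooled change of -0.46 ± 0.09 (adjusted p = 0.00904), while the lines other than IL-8_1_1 averaged 0.17 (adjusted p = 0.335). SDH had a pooled change of -0.38 ± 0.05 (adjusted p = 6.04e-04), and the lines other than IL-1_1_3 averaged -0.05 (adjusted p = 0.757).

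**Figure D4:**
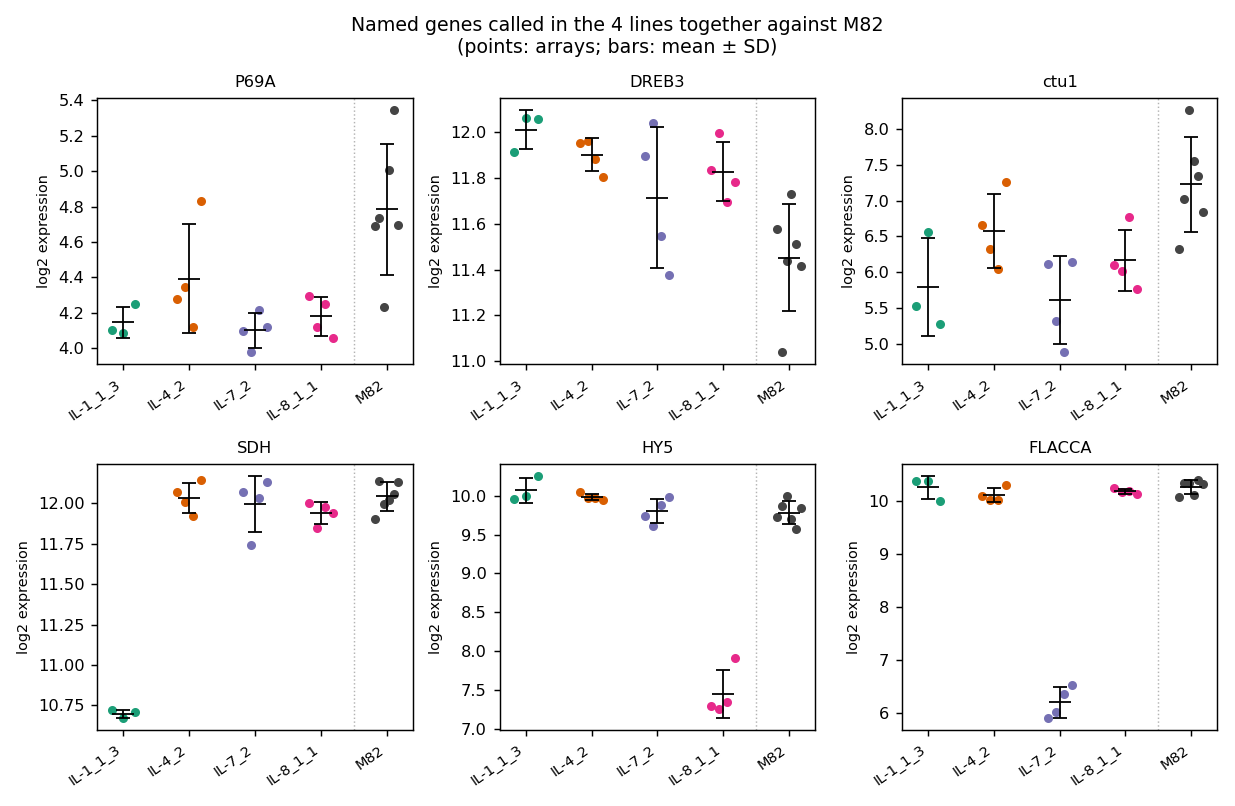
Log2 expression by group of the 6 named genes called in the pooled comparison (points are arrays, bars are mean ± SD). In P69A, DREB3 and ctu1 the means of all 4 lines lie on the same side of M82, with 1 line passing by itself in each. FLACCA and SDH also have all 4 means below M82, but most of the change is in IL-7_2 and IL-1_1_3. HY5 is low in IL-8_1_1 alone.

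A further 4 called probe sets have a symbol but fall outside the rule for naming, and were chosen after their values were seen. Les.500.2.A1_s_at, annotated to PMM, had a pooled change of -1.81 (adjusted p = 0.00145) with -5.94 in IL-8_1_1, and a mean of -0.43 in the other 3 lines. Its IL-8_1_1 arrays, at 3.78 to 3.89, were near the lowest value of the table (3.39). The 3 probe sets of PMM disagreed, since Les.5106.1.S1_at had -2.99 in IL-8_1_1 (adjusted p = 1.63e-04) and Les.500.1.S1_s_at had -0.29 (adjusted p = 0.851), and neither passed in the pooled comparison (0.0624 and 0.406). LOC606305 had a pooled change of -0.43 (adjusted p = 0.00216) with -1.84 in IL-7_2, and a mean of 0.04 in the other 3. LOC544070 had a pooled change of -0.98 (adjusted p = 0.0332), between -0.21 in IL-8_1_1 and -1.81 in IL-7_2. These 3 passed the F test among lines, LOC544070 with an adjusted p of 0.0205. LOC544070 lost its pooled call without M82 array 2, 5 or 6 (0.0686, 0.113 and 0.124), and without IL-1_1_3 array 2 or 3, IL-4_2 array 3 or IL-8_1_1 array 2 (0.0509 to 0.0572).

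LOC544300 was the one of the 4 that rose, with mean changes of 1.11 in IL-8_1_1, 0.91 in IL-7_2, 0.85 in IL-4_2 and 1.19 in IL-1_1_3. Its line arrays ran from 7.81 with a median of 9.06 to 10.19, against 7.60, 8.08 and 8.18 in M82, and 13 of the 15 lay above every M82 array. The other 2 were both of IL-7_2, whose arrays were split, with 9.66 and 10.19 beside 7.81 and 7.96. The pooled rise was 2.02-fold (log2 change 1.01 ± 0.26, adjusted p = 0.0487), and no line passed by itself. The call was lost without line IL-1_1_3 or IL-8_1_1 (adjusted p = 0.0867 and 0.06) and without any 1 of 17 of the 21 arrays (0.0581 to 0.148), all but M82 array 3 and IL-7_2 arrays 2, 3 and 4.

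Genes were also read by pathway, in 23 lists that together held 256 genes, of which 1 rose and 3 fell (1.56%, where 1.91% of all probe sets were called). DREB3 and HY5 were of 15 WRKY, MYB, bZIP and DREB factors (list median 0.21), FLACCA of 7 genes of abscisic acid and desiccation (0.06), and P69A of 12 defence genes (0.04). None of the 4 passed with the line as a random block (adjusted p = 0.757 for DREB3, 0.795 for HY5, 0.783 for FLACCA and 0.582 for P69A) or as 15 arrays against 6 (0.180, 0.629, 0.522 and 0.086). No member passed in the other 20 lists. The 4 called members became 16 without M82 array 3, 9 without IL-7_2 array 3 or 4, and 7 without IL-7_2 array 2 or IL-1_1_3 array 1. Over all probe sets the median pooled change was 0.03, and 57.3% were above 0 and 42.7% below.

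All 9 photosynthesis genes had a pooled change below 0, with a list median of -0.40, and none passed. The list median was -0.12 in IL-8_1_1, -0.40 in IL-7_2, -0.28 in IL-4_2 and -0.73 in IL-1_1_3, and 7 of the 9 genes were below 0 in all 4 lines. CAB6A, a chlorophyll a/b binding protein, ran from 10.01 with a median of 10.85 to 11.32 in the lines, against 11.01, 11.29 and 11.43 in M82 (log2 change -0.40 ± 0.10, adjusted p = 0.0589). CRTL-E-1, the lycopene epsilon-cyclase of carotenoid synthesis, ran from 5.55 with a median of 6.16 to 6.43, against 6.02, 6.65 and 7.06 in M82 (log2 change -0.46 ± 0.13, adjusted p = 0.0653). Both overlapped between the groups. Both passed without M82 array 3 (adjusted p = 0.0424 and 0.028). CAB6A also passed without IL-7_2 array 2 (0.0405) or any IL-1_1_3 array (0.0457 to 0.05), and CRTL-E-1 without M82 array 4 (0.0189). Without line IL-1_1_3 the adjusted p was 0.267 for CAB6A and 0.270 for CRTL-E-1, and without IL-4_2 0.0615 and 0.0893. Without IL-7_2 it was 0.0697 and 0.0494, and without IL-8_1_1 0.0205 and 0.0350. By itself only IL-1_1_3 passed for either gene (0.0232 and 0.0284). The highest adjusted p among the alternatives was 0.757 for both. The mean level of the list per array was 9.32 to 10.47 over the lines and 10.10 to 10.56 in M82.

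The 6 genes of the pollen list had pooled changes above 0, with a list median of 0.14, and none passed. The list median was 0.20 in IL-8_1_1, -0.06 in IL-7_2, 0.19 in IL-4_2 and 0.22 in IL-1_1_3. Only 1 of the 6 genes had 1 sign in all 4 lines (16.7%, against 40.6% of all probe sets). LAT61, a gene of late anther development, lay at 10.65 to 11.12 in the lines, against 10.58 to 10.73 in M82 (log2 change 0.18 ± 0.05, adjusted p = 0.0716), and 13 of the 15 line arrays were above every M82 array. It passed without IL-1_1_3 array 2 (0.0495) or IL-7_2 array 2 (0.0488). Without line IL-1_1_3 its adjusted p was 0.16, without IL-4_2 0.121, without IL-7_2 0.0840 and without IL-8_1_1 0.0359. No line passed by itself. Stig1, a gene known from stigmas, lay at 4.09 to 5.29 on 14 line arrays and at 4.12 to 4.36 in M82, with 8.86 on IL-8_1_1 array 2. Its pooled log2 change of 0.43 (adjusted p = 0.642) was the largest of the list. The mean level of the list per array was 9.46 to 11.60 over the lines and 9.78 to 10.59 in M82.

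The tapetum list had 1 measured gene, TPRP-F1, which is no defining tapetum marker, so the tapetum could not be followed. TPRP-F1 lay at 9.04 to 10.80 in the lines and 9.59 to 10.75 in M82 (log2 change -0.55 ± 0.23, adjusted p = 0.238, and 0.0447 without IL-7_2 array 4). Without line IL-1_1_3 its adjusted p was 0.498, and no line passed by itself. In whole anthers, fewer cells of a type and less RNA per cell cannot be told apart.

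Of the 40 cell wall genes none passed, and 25 were below 0 (median -0.10). Xegip, a xyloglucanase inhibitor, lay at 5.36 to 8.19 in the lines, against 6.93 to 8.74 in M82 (log2 change -1.33 ± 0.34, adjusted p = 0.0543). It passed without M82 array 3 (0.0188), IL-1_1_3 array 1 (0.0315), IL-4_2 array 4 (0.044) or IL-7_2 array 3 (0.0323). Without line IL-7_2, the 1 line that passed by itself (0.0101), its adjusted p was 0.133. Without line IL-1_1_3, IL-4_2 or IL-8_1_1 it was 0.0543, 0.0572 and 0.0349. TBG7, a beta-galactosidase, lay at 5.58 to 7.31, against 6.64 to 7.96 in M82 (log2 change -0.71 ± 0.22, adjusted p = 0.105, and 0.0476 without IL-7_2 array 4). For TBG7 the adjusted p was 0.259 without line IL-1_1_3, and no line passed by itself. At an unadjusted p under 0.05 there were 2 cell wall genes above 0 and 9 below.

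Of the 35 ethylene genes 31 were above 0 (median 0.13) and none passed, with 10 above and 1 below at an unadjusted p under 0.05. The sign was the same in all 4 lines for 17 of the 35 (48.6%, against 40.6% of all probe sets). Some of the 31 were dim, such as ACS7 and ACS5 (3.68th and 6.84th percentile). Of the 7 MADS box genes, which include regulators of floral organs, 6 were above 0 (median 0.15), and none passed (lowest adjusted p = 0.170). In 6 the sign was the same in all 4 lines, which held for 40.6% of all probe sets. RIN and AGL11, both above 0, were dim, with means of 3.88 and 4.31 over the lines (0.505th and 4.37th percentile). The remaining lists had no called member either, with medians between -0.16 (6 gibberellin genes) and 0.11 (9 protein kinase and calcium genes). Among them were 21 genes of sugar and starch (median 0.02), 15 of redox (0.03), 13 of jasmonate and oxylipins (0.05), 13 of histones and cell cycle (0.02) and 10 of phenylpropanoids (0.10). At an unadjusted p under 0.05 the shares were 66.7% of photosynthesis genes, 57.1% of MADS box genes and 50% of heat shock genes. They were 46.7% of the WRKY, MYB, bZIP and DREB factors, 40% of phenylpropanoid genes, 33.3% of defence genes and 31.4% of ethylene genes. Auxin and abscisic acid genes had 28.6% each, cell wall genes 27.5%, redox genes 20% and all probe sets 16.9%. Gibberellin and pollen genes had 16.7% each, jasmonate genes 15.4%, sugar and proline genes 14.3% each and pectin enzymes 11.1%. The 1 tapetum gene was also under 0.05. The cytoskeleton, histone, protein kinase, ribosomal protein and ubiquitin lists had 0.

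**Figure D5:**
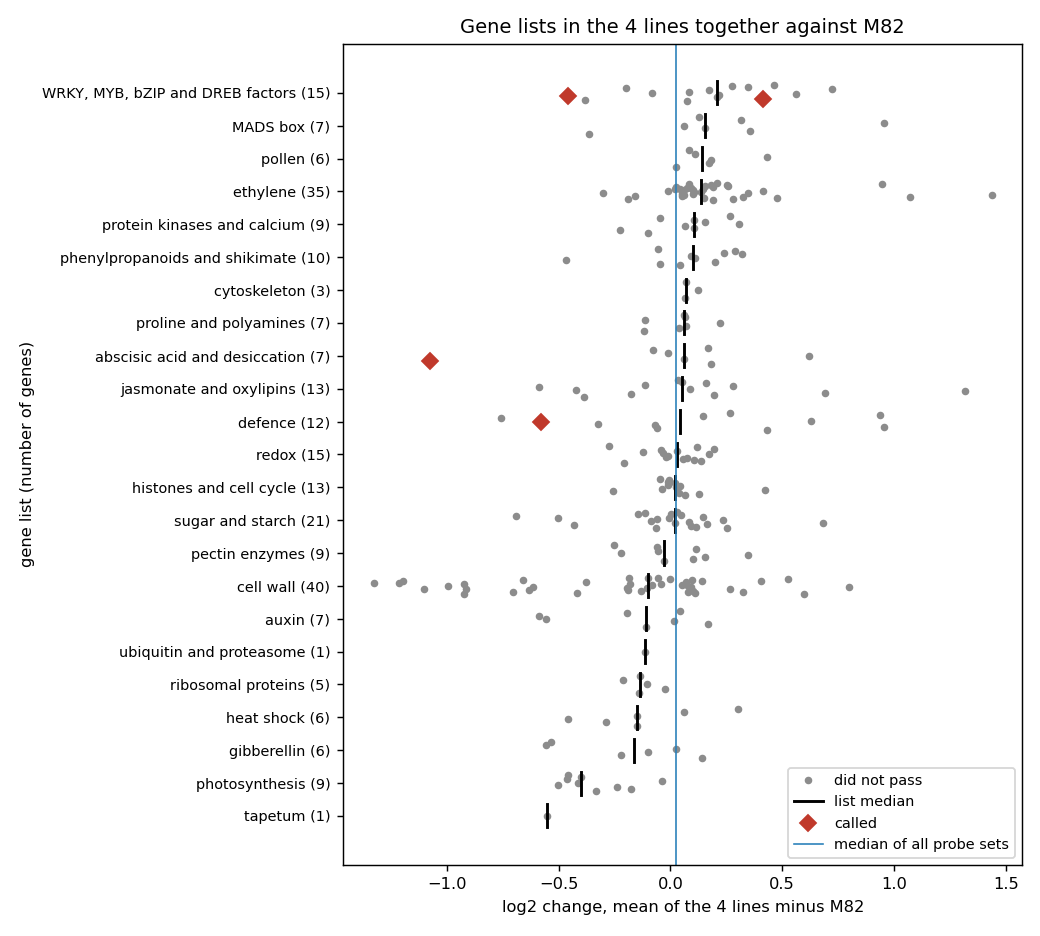
Pooled log2 change (mean of the 4 lines minus M82) of each gene by list, with list medians as black bars, called genes as red diamonds and the median of all probe sets as a blue line. The photosynthesis genes lie left of 0 (median -0.40) with no called member, and the 4 called genes belong to 3 lists.

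The counts moved with single arrays and with how the lines entered the model. The 193 pooled calls became 85, 413, 90 and 83 without M82 arrays 2, 3, 5 and 6, and the 19 shared changes became 10, 56, 8 and 8. Without IL-7_2 array 4 the shared changes became 33, and without IL-7_2 array 2 the 707 differences among lines became 1541. Of the 19, 14 kept the pooled call and 8 met the whole rule in each of the 21 fits that left out 1 array. With the line as a random block, where the scatter between lines enters the error, 2 probe sets passed, Les.4290.1.S1_at and LesAffx.65306.1.S1_at. The labels give no batch, so a batch that followed the groups cannot be told apart from them.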

How the data were processed

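Anthers were measured on 21 Affymetrix arrays. The deposited table holds log2 values, a scale read from their range. Per the submitters' processing notes the authors used affy, with a version and summarisation method not given in the sources used here. Of 10209 probe sets, 108 controls (AFFX) were dropped, and 63 reporters (RPTR) stayed in. The platform's annotation, which can be old, named 1 gene for 909 of the 10101 tested, several for 0 and none for 9192. Of the 909, 702 (626 genes) had an informative symbol, that is, no LOC number or locus tag. A gene was represented by its brightest probe set.

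One linear model of the 5 groups over 21 arrays (limma 3.58.1, R 4.3.3, data.table version 1.17.8; lmFit and eBayes, 16 residual degrees of freedom) gave the pooled contrast, each line, each mean of 3 lines and the F test among lines. P-values were adjusted over all probe sets (Benjamini-Hochberg) and called at 0.05. Errors beside changes are standard errors. The model was tested on simulated data. Alternatives covered scaling, prior, filters, weights, blocks, single arrays and single lines.

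Named genes were up to 12 rises and 12 falls with informative symbols, up to 6 unnamed shared probe sets per direction, up to 3 called members per list, the 2 members of lowest p in the pollen, tapetum, photosynthesis and cell wall lists where none was called, and probe sets called in each line. Lists are patterns of symbols, and PGH1, PTOX, RBOH1, AGP-1 and PTI1 (ethylene list) entered by their letters alone. PRO1 entered both the cytoskeleton list and the list of proline and polyamines. The members and lists were chosen with earlier results of these data known.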

Additional observations from a re-analysis of the deposited data

Results flagged for a closer look

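Changes against M82 differed between the 4 lines, by the F test among them, for FLACCA (adjusted p = 3.11e-14), HY5 (3.82e-11), SDH (2.11e-09), Les.1645.1.A1_at (3.16e-05), LesAffx.6721.1.S1_at (1.13e-04), Les.2063.1.A1_at (3.07e-04) and Les.5829.1.S1_at (0.0101). The last 4 of these belong to the 19 shared changes, so that they share a sign but not a size.

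Single arrays stood far from the rest of their group 9 times in 96 groups examined for the genes named. The gap was held to Dixon's 95% critical value, which about 1 group in 20 passes by chance. Stig1 was 8.86 on IL-8_1_1 array 2, with the next at 4.33. TPRP-F1 was 10.80 on IL-7_2 array 4, with the next at 9.16, and 9.59 on M82 array 3, with the next at 10.36. Les.3166.1.S1_at was 5.62 on M82 array 3, with the next at 7.62. HY5 was 7.91 on IL-8_1_1 array 4, with the next at 7.34. Les.1645.1.A1_at was 7.72 on IL-7_2 array 1, with the next at 8.53. LesAffx.124.1.S1_at was 6.23 on IL-4_2 array 3, with the next at 6.79. LesAffx.3499.2.A1_at was 9.42 on IL-4_2 array 1, with the next at 9.73. CRTL-E-1 was 6.14 on IL-8_1_1 array 2, with the next at 6.40.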

How the results depend on the processing

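The pooled calls (193), shared changes (19), differences among lines (707) and called list members (4) were compared over the alternatives. With array weights they became 661, 100, 5068 and 22, with the within-group axis score as a covariate 2286, 854, 3072 and 78, and the score is built from the same deviations, so it lowers the residual spread by construction. At an adjusted p of 0.01 they became 66, 7, 421 and 2. Without 3 arrays below their group means on the within-group axis they became 473, 44, 1968 and 24. Their distances from the group mean were -63.2 for IL-7_2 array 2, -34.6 for M82 array 3 and -21.5 for IL-4_2 array 3. Further out than the last were IL-7_2 arrays 3 (38.5) and 4 (33.1), M82 array 6 (26.0) and IL-8_1_1 array 2 (-23.7). The choice took arrays from the low side only, and leaving out a set from the high side was not tested. As 15 line arrays against 6, 8 probe sets and 0 list members passed, and with the line as a random block 2 and 0 (consensus correlation 0.0877). Neither of these fits gives a shared count or an F test. Replicate numbers gave no sign of paired arrays. Deviations of same-numbered arrays of different groups correlated at -0.806 to 0.698 (median -0.072), over 0.1 in 13 of 36 pairs. Those of differently numbered arrays correlated at -0.784 to 0.782 (median 0.0191), over 0.1 in 66 of 138 pairs. A fit with a replicate block gave 34 pooled calls, 6 shared changes and 1 list member. With IL-7_2 out of the contrast, lines differed at 310 probe sets and 9 list members passed, and 7 and 10 passed with IL-4_2 and IL-8_1_1 out. HY5 turned to 0.17 without IL-8_1_1. Leaving out 1 array gave 83 to 413 pooled calls, 8 to 56 shared changes, 577 to 1541 differences among lines and 3 to 16 list members. In the other settings these counts stayed within 1.5 times. Medians were followed for the photosynthesis, pollen, ethylene, cell wall and MADS box lists alone. Of these medians and the named genes under all settings, 1001 values were counted as unchanged, 58 lost a call, 33 gained a call and 1 turned. Unchanged meant the same side of the threshold for a gene. For a list median it meant a shift within the SD of that list's median over the M82 arrays. The causes were not tested. The table carries no detection calls, so how far background limits the dim probe sets is unknown.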
